A study of Mus musculus with 9 samples.

Results

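Imprinted genes are read from the copy of 1 parent only, and several of them carry a miRNA inside their transcript. The 6 mature miRNA names described here come from such genes: mmu-miR-335-5p and mmu-miR-335-3p from Mest, mmu-miR-675-5p and mmu-miR-675-3p from H19, and mmu-miR-483-5p and mmu-miR-483-3p from Igf2. They are 6 of 1915 mature names in a count table of milk fat, and were chosen by locus, with their counts in both diets already known, so the diet comparison of these names is a description without a p-value. Of the 6 names, 2 had at least 1 count and 4 were at 0 in all 9 libraries.

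Small RNA was sequenced from washed milk fat of ICR (CD1) mice, an outbred stock, taken on lactation day 10 after a first pregnancy, with 1 library per dam. Fat supplied 60% of the energy for the 4 high-fat dams and 10% for the 5 control dams, who ate their diets from 4 weeks of age, for 4 weeks before mating, and on through pregnancy and lactation. Both diets had 7% of their energy from sucrose, and the energy density was 5.24 kcal per g for the high-fat and 3.85 kcal per g for the control diet. Milk fat globules carry cytoplasm of the secreting mammary cell, and their RNA is a mixture in which fewer cells of a type and less RNA per cell cannot be told apart. High-fat library 2 was the deepest, with 3897109 counts, and control library 5 the shallowest, with 837817, and 828 names were detected in all. A list of 7 miRNAs of secretory mammary epithelium, all detected, held 48.2% to 51.2% of high-fat counts and 45.5% to 51.1% of control counts.

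Mest is expressed from the paternal copy in mesoderm, fat and other growing tissues, and in mice its level in fat tissue follows the expansion of that tissue. H19, a noncoding RNA of the maternal copy, and Igf2, a fetal growth factor of the paternal copy, lie side by side and share enhancers. miR-335 has been found raised in liver and fat of obese mice, and in human breast cancer cells it represses SOX4 and tenascin C. miR-675 restrains growth of the mouse placenta and represses Igf1r there. miR-483-3p lowers GDF3 and with it fat-cell maturation in rats and humans.

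The mature sequences are shown because each name is counted by its sequence, and because bases 2 to 8, the seed that pairs with target transcripts, set which other names could act alike. They are RefSeq sequences on build GRCm38.p6, 5′ to 3′, with the seed in capitals, and all 6 names matched.
mmu-miR-335-5p: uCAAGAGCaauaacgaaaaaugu
mmu-miR-335-3p: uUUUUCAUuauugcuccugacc
mmu-miR-675-5p: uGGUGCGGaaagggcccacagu
mmu-miR-675-3p: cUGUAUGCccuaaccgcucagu
mmu-miR-483-5p: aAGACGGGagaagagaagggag
mmu-miR-483-3p: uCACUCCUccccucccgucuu

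The 6 seeds all differ, and no other name among the 1679 mature names of the RefSeq table shares one of them, so these miRNAs do not form a family. Over bases 2 to 7 alone, miR-335-5p matched miR-7646-5p, which had 1 count in all libraries, miR-335-3p matched miR-6986-3p, which had 0, and miR-483-3p matched miR-3110-3p, which had 1. Counts of the miR-335 arms therefore had no abundant partner of like seed among these names. Of the 1915 names in the count table, 1623 matched a RefSeq name, and the seeds of the rest were not compared. miR-335-5p and miR-335-3p are poor in G and C, at 30.4% and 36.4% of their bases, while the 4 names from H19 and Igf2 hold 54.5% to 63.6%.

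Mir335 lies at chr6:30741299-30741396 on the plus strand, in an intron of all 7 Mest transcripts that span it in GENCODE M21 (GRCm38). Its hairpin is shown because both of its arms were counted, and they stand in capitals, the 5p arm first.
Mir335 hairpin: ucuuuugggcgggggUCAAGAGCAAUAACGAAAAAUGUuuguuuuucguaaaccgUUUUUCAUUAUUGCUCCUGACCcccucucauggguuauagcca

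Mir675 lies at chr7:142577064-142577147 on the minus strand, in an exon of 3 of the 4 H19 transcripts that span it. Mir483 lies at chr7:142654924-142654996 on the same strand, in an intron of all 7 Igf2 transcripts that span it, and 77776 bases separate these hairpins.

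miR-335-5p was the 1 member counted in most libraries. It had 17, 26, 15 and 161 counts in high-fat libraries 1 to 4, and 3, 6, 3, 8 and 0 counts in control libraries 1 to 5. Scaled to the library total, that is 7.28, 6.67, 7.42 and 84.5 CPM (counts per 1000000 counts of the library) in high-fat milk, and 1.78, 4.82, 1.09, 5.00 and 0 CPM in control milk. All 4 high-fat libraries lay above all 5 control libraries, 3 of them close together and high-fat library 4 far above the rest.

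The counts behind most of these values are few. High-fat library 2, the lowest of its diet, had a 95% Wilson interval of 4.55 to 9.78 CPM, and control library 4, the highest control, one of 2.53 to 9.87 CPM. The nearest libraries of the diets therefore overlap in counting error, which is all that these intervals cover. High-fat library 4 had an interval of 72.4 to 98.6 CPM, apart from that of every other library. The 0 of control library 5 was read as up to 3 counts, or 3.58 CPM. In high-fat library 4, miR-335-5p ranked 138 among 538 detected names. In high-fat libraries 1, 2 and 3 its ranks were 304, 268 and 280, and in control libraries 1 to 4 they were 374, 311, 423 and 293.

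**Figure D1:**
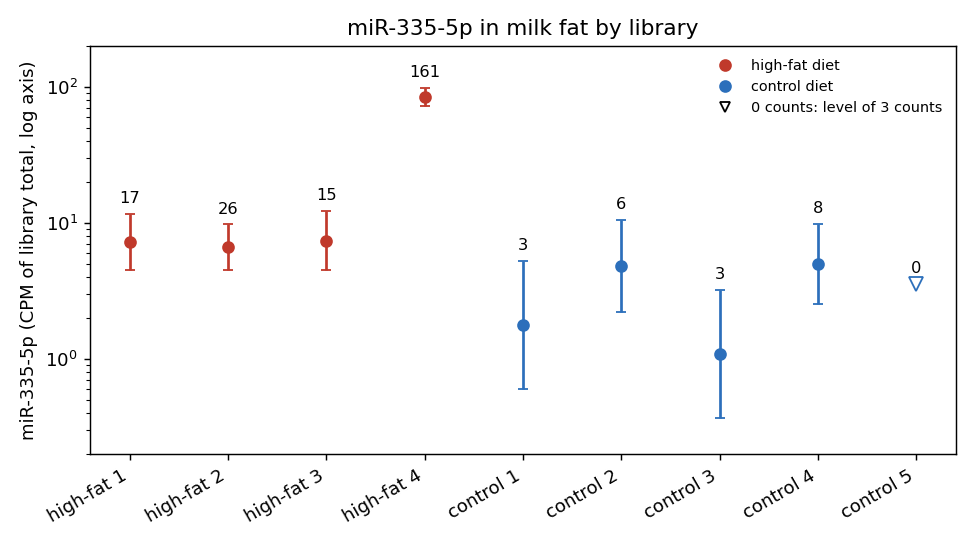
miR-335-5p in each library as CPM of the library total on a log axis, with high-fat libraries in red and control libraries in blue; points are single dams, bars are 95% Wilson intervals, and the raw count stands above each. High-fat library 4 lies at 84.5 CPM, the other 3 high-fat libraries at 6.67 to 7.42 CPM, and the controls at 5.00 CPM or less, with the open triangle marking 3.58 CPM, the level of 3 counts, for the library with 0.

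The mean level of miR-335-5p was 26.5 ± 38.7 CPM in high-fat milk (SD, n = 4) and 2.54 ± 2.26 CPM in control milk (SD, n = 5), a ratio of 10.4. High-fat library 4 gave 73.5% of all miR-335-5p counts of its diet and decides that mean. Without it the high-fat mean was 7.12 ± 0.396 CPM (SD, n = 3), a ratio of 2.81 to the control mean. The medians were 7.35 CPM in high-fat milk and 1.78 CPM in control milk, a ratio of 4.12.

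In the limma-voom fit over the 312 names that passed the filter on low counts, the log2 fold change of miR-335-5p, high-fat over control, was 2.51 ± 1.10 (SE), against a median of 0.00 over all tested names. Without high-fat library 4 it was 1.76 ± 0.64. It was the highest of the 312 fold changes, and this is no support for a diet effect, since miR-335-5p entered the test only through the group in which it is high. All 4 high-fat libraries and 0 of the 5 control libraries reached the 5.25 CPM of the filter. Of the 1 member tested, 0 was called at an adjusted p of 0.05 by limma-voom, where 0% of the tested names were called and 10.3%, or 32 names, had an unadjusted p below 0.05. limma-trend called 2 names, miR-3470a and miR-3470b, neither of them a member. Its full separation of the diets was shared by 8 of the 312 tested names, or 2.56%, itself included.

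High-fat library 4 was then compared with the other 8 libraries over all tested names, to see whether many names stood out there. On the scale of log2(CPM + 0.5), miR-335-5p was 3.97 above the median of the other libraries, the first of 312 names. The next, miR-1957a, was 1.94 above, and the SD over all names in that library was 0.69. High-fat libraries 1 to 3 had miR-335-5p at 0.52, 0.41 and 0.55 above the median of the others. The control libraries had it at -1.46, -0.24, -1.98, -0.17 and -3.65. The last of these is set by the added 0.5, since control library 5 had 0 counts, and is not a measured level. Other libraries had departures as large for other names: of 2808 values over all names and libraries, 9 were higher than that of miR-335-5p in high-fat library 4, led by miR-150-5p at 6.59 in high-fat library 3.

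**Figure D2:**
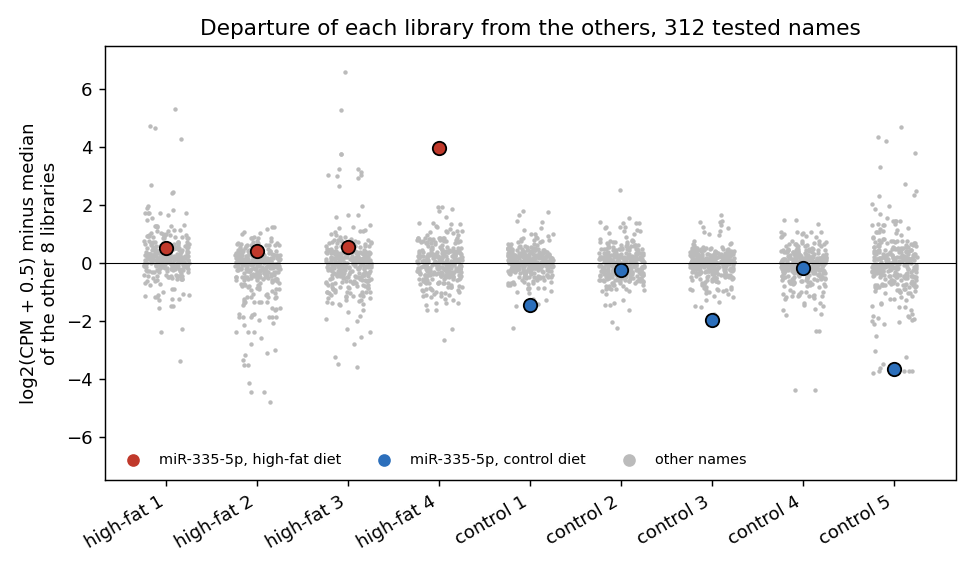
Departure of each library from the median of the other 8 on the log2(CPM + 0.5) scale, for 312 tested names in grey, with miR-335-5p as a large point (red in high-fat, blue in control libraries). miR-335-5p is the highest name in high-fat library 4, at 3.97, and lies below 0 in all 5 control libraries. Its point in control library 5, with 0 counts, is set by the added 0.5.

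Lists of miRNAs enriched in other cell types, fixed with earlier results known, were set beside the value of high-fat library 4. Whether their counts came from those cell types was not tested. The stromal list of 5 names, all detected, held 2.57% of the counts in that library, against 1.17% to 1.26% in high-fat libraries 1 to 3 and 1.04% to 1.92% in control libraries. The list of 2 names enriched in pancreatic islets was also highest there, at 0.744%, against 0.446% to 0.571% in high-fat libraries 1 to 3 and 0.406% to 0.512% in control libraries. The leukocyte list, at 0.0251%, was lower there than in all 5 control libraries. It varied widely within the diet, at 1.14%, 0.00777% and 0.287% in high-fat libraries 1 to 3. The muscle list, with miR-206-3p, miR-208a-3p and miR-208b-3p at 0 throughout, held 0.000525% of high-fat library 4, within the control range of 0.000436% to 0.00137%. The endothelial, erythrocyte and liver lists also lay within their control ranges there. They held 0.00205%, 0.00745% and 0.00456% of high-fat library 4, against 0.000643% to 0.0022%, 0.00107% to 0.0111% and 0.00206% to 0.00926% in control libraries. The liver value was the highest of its diet. The part of the stromal and islet lists in the miR-335-5p value was not tested.

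No neighbouring miRNA gene departed as far as miR-335-5p in high-fat library 4. Within 1000 kb of Mir335 lie Mir182, Mir96, Mir183, Mir29a and Mir29b-1, whose 10 mature names had from 90 counts, for miR-96-3p, to 216961 counts, for miR-29a-3p, over all libraries, against 239 for miR-335-5p. miR-29a-3p, from 321 kb away, measured 10793 CPM in high-fat library 4, the lowest of the high-fat range of 10793 to 13105 CPM, and 10029 to 13382 CPM in control libraries. miR-182-5p, from 575 kb away, measured 7679 CPM in high-fat library 4, within 6970 to 8924 CPM over high-fat and near the low end of 7384 to 10916 CPM over control libraries. Against the median of the other libraries, the 10 mature names of these genes lay between -1.26 and 0.63 on the log2 scale in high-fat library 4. miR-29a-5p, at 9.97 CPM, was highest there among all libraries, with controls at 8.31 CPM or less. miR-96-5p, at 1613 CPM, was above every control, the highest of which had 1505 CPM, but not the highest of its diet. All other names of the 10 lay below the median of the other libraries. miR-29b-3p, 1 of the 10, is also encoded by a second gene on another chromosome.

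miR-335-3p, the other arm of the Mest hairpin, was near the limit of detection. It had 1, 0, 0 and 2 counts in high-fat libraries 1 to 4, and 0, 0, 5, 1 and 0 counts in control libraries 1 to 5. That is 0.369 ± 0.496 CPM in high-fat milk (SD, n = 4) and 0.489 ± 0.791 CPM in control milk (SD, n = 5), with overlapping diets. It did not pass the filter, and at this depth no difference was detectable. The highest value, in control library 3, came from 5 counts.

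The balance of the arms is given as the share of each in the counts of the hairpin. What sets that share was not tested. Over all high-fat libraries the 5p arm made up 219 of 222 counts of mir-335, or 98.6% (95% exact interval 96.1% to 99.7%), and over all control libraries 20 of 26, or 76.9% (56.4% to 91.0%). These intervals cover counting error of pooled reads and not the spread between dams. By library, the 5p arm held 94.4%, 100%, 100% and 98.8% of the counts in high-fat libraries 1 to 4, and 100%, 100%, 37.5% and 88.9% in control libraries 1 to 4, while control library 5 had no count of either arm. Control library 3, with 3 counts of the 5p and 5 of the 3p arm, stands apart from the other libraries, and without it the control share was 17 of 18 counts, or 94.4%. High-fat library 4, with 161 and 2 counts, had nearly the same share as the other high-fat libraries.

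As log2 of 5p over 3p counts, with 0.5 added to each, the mean was 5.06 ± 1.11 in high-fat (SD, n = 4) and 2.09 ± 1.897 in control libraries (SD, n = 4), and 3.003 ± 0.62 in the controls without library 3 (SD, n = 3). With so few 3p counts this ratio depends on single 3p counts as well as on the 5p count. Control libraries 1 and 3 each had 3 counts of the 5p arm. Their ratios were 2.81 and -0.65, with 0 and 5 counts of the 3p arm. Over the 186 hairpins with both arms listed and at least 50 counts, the more abundant arm held a median of 98.0% of the counts over all libraries, and that of mir-335 held 96.4%.

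**Figure D3:**
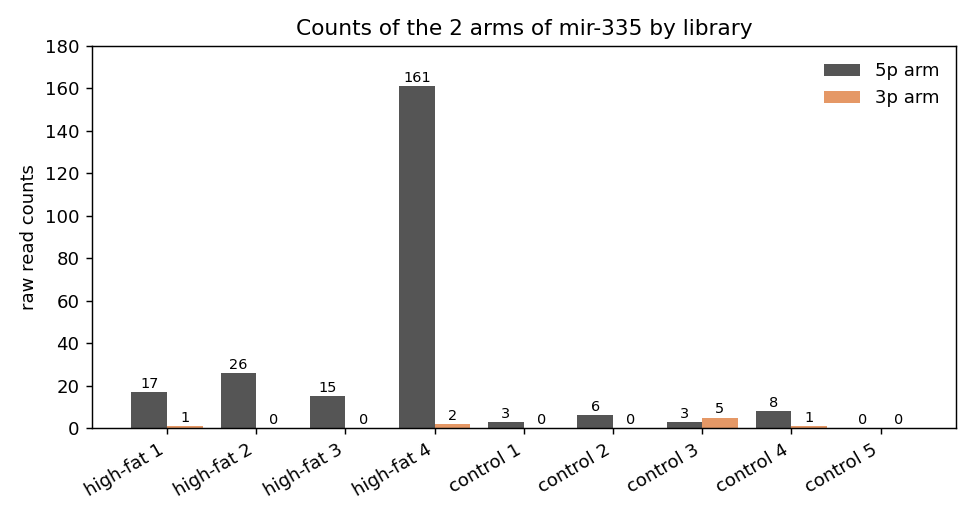
Raw read counts of the 5p arm (grey) and 3p arm (orange) of mir-335 in each library, high-fat libraries on the left and control libraries on the right. The 3p arm reaches at most 5 counts, in control library 3, the only library where it exceeds the 5p arm.

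The H19 and Igf2 names were not detected. miR-675-5p, miR-675-3p, miR-483-5p and miR-483-3p each had 0 counts in all 4 high-fat and all 5 control libraries. The limit that a 0 sets, taken as 3 counts, is 0.295 CPM over the 10161429 pooled high-fat counts and 0.370 CPM over the 8116910 pooled control counts. In single libraries the limit ran from 0.77 to 1.57 CPM in high-fat and from 1.09 to 3.58 CPM in control milk. Their absence from the counts is not unusual, since 1087 of the 1915 names in the table, or 56.8%, were at 0 throughout. The 0 of the H19 and Igf2 names gives no fold between diets.

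Taken as a sum, the 6 names held 26.8 ± 39.1 CPM of high-fat milk (SD, n = 4) and 3.03 ± 2.28 CPM of control milk (SD, n = 5), and 7.26 ± 0.53 CPM of high-fat milk without library 4 (SD, n = 3). miR-335-5p gave 219 of the 222 counts of the 6 names in high-fat milk and 20 of the 26 in control milk. Averaged over libraries, miR-335-5p held 13.2 CPM and ranked 256 among the 828 detected names, just below miR-210-5p at 13.3 CPM and just above miR-130b-3p at 13.01 CPM. High-fat library 4, at 84.5 CPM and rank 138, sets most of that mean. Every other library had miR-335-5p at 7.42 CPM or less, and none ranked it above 268. miR-335-3p held 0.436 CPM and ranked 545, just below miR-185-3p at 0.437 CPM and just above miR-1958 at 0.433 CPM. Differences between these neighbours in rank were not tested.

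Other imprinted loci with miRNAs were compared with that of Mest. The Dlk1-Dio3 region of the distal part of chromosome 12, whose miRNAs are read from the maternal copy, had 106 names in the table, of which 34 were detected and 0 passed the filter. Their summed level was 32.5, 9.75, 41.0 and 50.9 CPM in high-fat libraries 1 to 4 and 5.97 to 18.5 CPM in control libraries, with overlapping diets. High-fat library 4 was highest here as for miR-335-5p, and high-fat library 2 was the lowest of its diet for both. That low place is not particular to these loci. High-fat library 2, though the deepest, had 473 names detected, the fewest of its diet. It was also lowest of its diet for the leukocyte and stromal lists and for the Sfmbt2 sum given below, but not for Gnas. For miR-335-5p that lowest place, at 6.67 CPM against 7.28 and 7.42 CPM in high-fat libraries 1 and 3, lies within counting error. miR-136-3p, the most abundant name, measured 0.513 to 8.92 CPM in high-fat and 0 to 2.50 CPM in control milk.

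At Gnas, 3 of 4 names were detected, 0 were tested, and high-fat library 4 had 0 counts of them, against 1.80 to 8.99 CPM in the other high-fat and 1.19 to 5.97 CPM in control libraries. miR-296-5p, the most abundant, measured 0 to 5.93 CPM in high-fat and 0.594 to 5.97 CPM in control milk. The Sfmbt2 intron, a large paternally expressed cluster of the mouse, had 69 names placed in it, of which 49 were detected and 14 tested. Of these 14, 0 were called in either direction by limma-voom, and 8 had fold changes above 0, with a median log2 fold change of 0.58. Over all 312 tested names 158 were above 0. Of the 14, 12 had counts identical to those of another name of the cluster, so they are not separate measurements. The summed level of the 69 names was 318, 25.4, 168 and 276 CPM in high-fat and 48.8 to 126 CPM in control libraries, again with overlap. Of the 49 detected names, 21 had counts identical to those of another, so this sum can hold the same reads more than once. The most abundant, miR-467e-5p, measured 3.59 to 32.5 CPM in high-fat and 2.39 to 11.3 CPM in control milk.

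**Figure D4:**
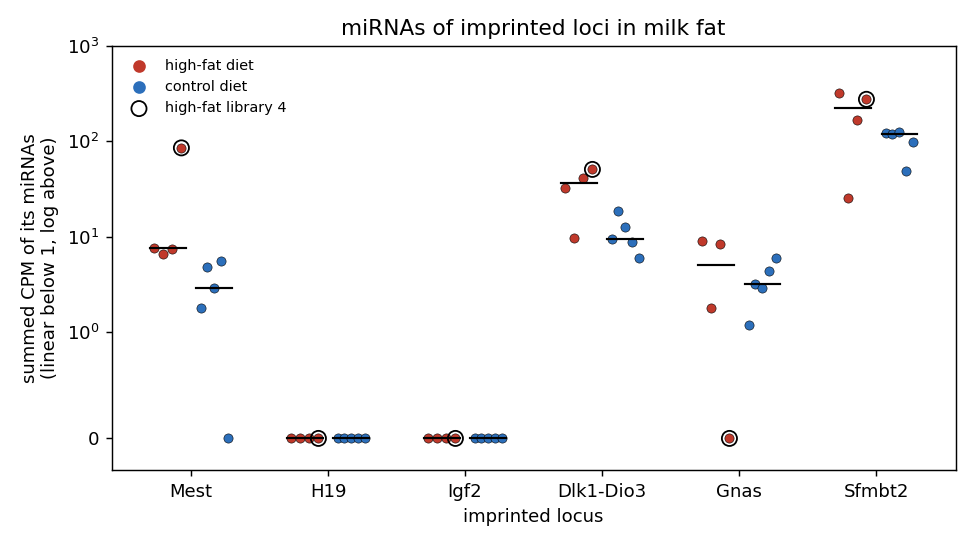
Summed CPM of the miRNAs of 6 imprinted loci, by library (high-fat red, left; control blue, right), on an axis that is linear below 1 and logarithmic above; short lines are medians and open rings mark high-fat library 4. The diets separate at Mest and overlap at Dlk1-Dio3, Gnas and Sfmbt2, and H19 and Igf2 are at 0 in all 9 libraries. The Sfmbt2 sum can hold the same reads more than once, as some of its names have identical counts.

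The tested names most like miR-335-5p over the 9 libraries, by Pearson correlation of log2(CPM + 0.5), were miR-148b-5p at 0.85, miR-101a-3p at 0.85 and miR-32-5p at 0.84, where the median over 311 names was -0.02. Spearman correlations were 0.83, 0.60 and 0.88. Without high-fat library 4 and control library 5, the libraries farthest from the median of miR-335-5p, the Pearson values were 0.72, 0.63 and 0.90 over 7 libraries. The distance of control library 5, with 0 counts, was set by the added 0.5. Each of the 3 names was highest in high-fat library 4 among all libraries, at 47.2 CPM for miR-148b-5p, 6129 CPM for miR-101a-3p and 232 CPM for miR-32-5p, but on a much smaller range than miR-335-5p. miR-148b-5p ran from 23.1 to 47.2 CPM in high-fat and from 14.5 to 29.4 CPM in control milk. The 9 libraries differ in depth and fall into 2 diets, and with few counts of miR-335-5p these values are a description.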

How the data were processed

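The authors deposited raw read counts of known miRNAs, listed by precursor and mature name for each of the 9 dams. The submitters' processing notes name cutadapt 1.9.1 and build GRCm38. The aligner, the counting tool, the miRBase release and the use of the kit's random bases were not given in the sources used here. Counts were taken as reads, not molecules. Comma separators in 833 cells were removed. Because of them the deposited columns were recorded under another unit than counts, for which count models are not used here. Columns were matched to dams by sample name. Each of the 6 members has 1 row. For the 81 names with several rows, the highest count per library was kept.

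Levels are CPM of the library total. Names were tested at 10 counts scaled to the median library (5.25 CPM) in at least 4 libraries and 15 in total. limma 3.58.1 in R 4.3.3 fitted voom weights with trimmed-mean scaling and diet as the only term, adjusted by the Benjamini-Hochberg method over 312 names, two-sided, and was tested on simulated data. Wilson and exact (Clopper-Pearson) intervals come from scipy 1.17.1. No library repeated another of its diet, as every pair differed by a chi-square of at least 50.2 for each degree of freedom. Named miRNAs are the 6 members, the top name of each other imprinted locus, the names beside a member by rank or seed, and the 3 names most like miR-335-5p. The miRNA genes near Mir335 and the names that lead a library were chosen after their values were seen. The members and all lists were chosen with earlier results of these data known.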

Additional observations from a re-analysis of the deposited data

Results flagged for a closer look

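In 28 groups of values, 1 library lay far from the others of its diet in 6, judged by its gap to the next library over the range. The cutoffs flag about 1 in 20 groups, or 1.4, where values are independent and normally distributed. Skewed shares from the same libraries are not such values, so 6 against 1.4 does not measure an excess over chance. miR-335-5p measured 84.5 CPM in high-fat library 4, whose gap to the next library was 0.99 of the range of its diet. The stromal list held 2.57% of the counts of the same library. High-fat library 3 was highest of its diet for the erythrocyte list, at 0.0504%, and for the muscle list, at 0.00979%. Control library 1 was highest for the liver list, at 0.00926%. Control library 5, the shallowest, was lowest for the secretory mammary epithelium list, at 45.5%. No relation between these lists and the 6 names was tested.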

How the results depend on the processing

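The log2 fold change of miR-335-5p stayed above 0 in all 15 alternatives run, from 1.76 without high-fat replicate 4 to 2.86 without high-fat replicate 2, and miR-335-5p was called in none of them. Every high-fat library lay above every control library, so leaving 1 out could not turn this sign, and its constancy is no support. The same holds for the sign of the summed levels of the 6 names. Over all tested names the count called was 0 with either other scaling and with rows of a name summed, 4 without the filter on low counts, 2 by limma-trend, and 0 to 4 when 1 library was left out, with 4 without control library 5. With the replicate number as a replicate block and control library 5 left out it was 3. Same-numbered libraries correlated in their deviations at 0.06, -0.09, 0.19 and -0.13, and high-fat libraries 2 and 4 correlated best with a control of another number, so the numbers were not read as pairs. None of the names called in an alternative was a member. With libraries left out, the same 312 names were tested. The log2 ratio of the mean summed levels of the 6 names was 3.15, with leave-one-out values of 1.26 (without high-fat library 4) to 3.50, and 3.17 and 3.08 with other denominators. The difference in log2 of 5p over 3p counts of mir-335 was 2.97 and 2.06 to 3.51 with a library left out (2.06 without control library 3), and 2.12 with a pseudocount of 5. Depth limits miR-335-3p, with at most 5 counts in a library, and miR-335-5p in control milk, with at most 8, and the other 4 names were at 0.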
